A study of Sus scrofa with 35 samples.

Results

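The core genes of autophagy were followed in the blood of heat-stressed pigs: ULK1, BECN1, ATG3, ATG5, ATG7, ATG12, MAP1LC3B, GABARAP, GABARAPL2 and SQSTM1. Members were the non-control probes of the array whose gene name was 1 of these 10 symbols. This gave 19 probes of 60305, for 8 of the 10 genes, and 17 of them were among the 39072 probes of the deposited log2 table. ATG12 and MAP1LC3B had no probe under their names and were not analysed here. Probe names are given throughout, because probes of 1 gene did not always move together.

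Whole blood RNA of 35 castrated male growing pigs was measured on 35 one-colour arrays, 1 per pig. The pigs were Creole (CR), Large White (LW) or their F1 cross, and were bled at slaughter either in thermoneutral conditions (TN, 24 °C) or after heat stress (HS). Each breed gave 6 pigs per climate, except for 5 CR pigs in TN. The sample labels put HS at 30 °C and the protocol at 32 °C for 5 days, so the groups are called HS and TN. The TN pigs were slaughtered before the temperature rise, so climate and day of sampling cannot be told apart. In whole blood, fewer cells of a type and less RNA per cell cannot be told apart either.

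Autophagy encloses cytoplasm and worn organelles in a double membrane that fuses with the lysosome. The ULK1 kinase starts the process, the BECN1 complex marks the membrane with a lipid, and ATG7, ATG3 and the ATG12–ATG5 conjugate attach MAP1LC3B and the GABARAP proteins to it. SQSTM1 carries ubiquitinated cargo to these proteins. Maturing red cells clear their mitochondria by this route, and blood monocytes and neutrophils also use it.

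The probes that carried the results are shown 5′ to 3′ as the array files give them. The first set holds the opening 30 bases of both GABARAPL2 probes and of the BECN1 probe that rose, which matched different stretches:
GABARAPL2 O10106: ctccaatcatgttggactgagctaatctgt
GABARAPL2 A_72_P127556: aagggagggagatgatgcatttattctgga
BECN1 A_72_P302859: gactttctttattccttaggggattgtttg
Both GABARAP probes shared 11 bases, in capitals, at the end of one and the start of the other, so they read neighbouring stretches and are not independent views of the gene:
GABARAP A_72_P193822: tggggggtagatggaagggACTGAATTGTG
GABARAP O10028: ACTGAATTGTGgcggggaaggtaggataca
The ATG7 probe with the smallest p-value is given whole, as is the second BECN1 probe, which did not follow the first:
ATG7 O12918: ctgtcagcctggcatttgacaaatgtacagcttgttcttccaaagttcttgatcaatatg
BECN1 O4451: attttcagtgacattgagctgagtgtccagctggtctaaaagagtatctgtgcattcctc
As printed, BECN1 O4451 had 0 reading frames without a stop, and its reverse complement had 1. GABARAPL2 O10106 and ULK1 A_72_P246097 had the same counts, and GABARAPL2 A_72_P127556 had 0 in either direction. These counts therefore do not set O4451 apart from the probes that passed. The strand of O4451 was not checked against a transcript, and whether O4451 reads BECN1 RNA was not tested. Agreement between the values of a pair of ULK1 probes was not computed. These probes differed, in capitals, at 2 of 59 aligned bases, so they are not independent views of the gene:
ULK1 A_72_P487880: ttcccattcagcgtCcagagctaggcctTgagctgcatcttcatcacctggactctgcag
ULK1 O6385: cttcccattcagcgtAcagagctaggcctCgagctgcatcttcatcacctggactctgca
The ATG5 probes A_72_P538278 and O11953 were identical over all 60 bases. Their log2 values on the same array differed by a median of 0.10 and by at most 0.39, which gives the error of a spot for this gene.

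All 17 probes were compared between climates with limma, on an additive model of breed and climate with p-values adjusted over 39072 probes. GABARAPL2 and GABARAP fell under HS, and ATG7 and one BECN1 probe rose. This made 7 of 17 member probes past an adjusted p of 0.05, from 4 genes, with 3 up and 4 down. Over all probes the share was 34.8%, with 20.1% up and 14.7% down, and 41.2% of the member probes passed, so the share of members was near that of the array. The pigs were litter blocks that shared pens and few days of slaughter, the labels do not give these, and p-values and shares from a model without them may count too many calls. The median HS minus TN difference was −0.05 over the members and 0.06 over all probes, on the log2 scale. Another 1 member probe, for ULK1, passed only without the adjustment.

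Some properties of the arrays moved with the groups. The 75th percentile of the processed intensity was 112 to 186 on the F1 TN arrays, with a mean of 150, and group means of the other 5 groups lay between 202 and 238. In 17 measured genes of 24 in a list of erythroid markers, 9 fell and 1 rose under HS, with a median of −0.72, against 3 up of 7 monocyte, 2 up of 5 B cell, 1 up of 6 T cell and 1 down of 6 cytotoxic lymphocyte genes. Of 5 platelet and 7 neutrophil genes, 0 passed. The mean log2 value of the erythroid list ranged from 10.7 to 12.6 in F1 TN and from 9.22 to 11.1 in F1 HS pigs, from 10.3 to 11.7 in CR TN and 9.83 to 11.5 in CR HS, and from 10.9 to 11.7 in LW TN and 10.4 to 11.4 in LW HS. ALAS2 (−0.74), EPB42 (−0.92) and CA1 (−1.41) were among the markers that fell, SLC4A1 (0.27) rose, and HBB did not pass (−0.13, adjusted p = 0.243).

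GABARAPL2, a GABARAP family protein that binds the growing membrane and cargo receptors, had the largest differences of the members. For probe O10106, the 5 CR TN pigs had log2 values of 15.11, 16.47, 15.88, 16.11 and 15.49, and the CR HS pigs ran from 14.54 to 15.84 with a median of 15.15. F1 TN pigs ran from 15.44 to 16.71 with a median of 16.14, and F1 HS pigs from 14.25 to 15.83 with a median of 15.08. LW TN pigs ran from 15.60 to 16.18 with a median of 15.90, and LW HS pigs from 14.76 to 16.02 with a median of 15.19. HS medians were lower in every breed, and the ranges overlapped in all of them. The difference over breeds was −0.74 ± 0.16 (SE), or 1.67-fold lower, with an adjusted p of 0.00168 by limma. The other probe, A_72_P127556, gave −0.77 ± 0.16 (adjusted p = 0.00165). Of the 18 HS pigs, 16 lay below the TN mean of their breed for A_72_P127556 and 15 for O10106, and 11 of 18 lay below every TN pig of their breed for either probe.

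GABARAP, the founding member of the same family, fell less. For O10028, the CR TN pigs had log2 values of 14.61, 15.47, 15.03, 15.08 and 15.02, and CR HS pigs ran from 14.47 to 14.91 with a median of 14.67. F1 TN pigs ran from 14.94 to 16.27 with a median of 15.42, and F1 HS pigs from 14.50 to 14.83 with a median of 14.70. LW TN pigs ran from 14.87 to 15.45 with a median of 15.13, and LW HS pigs from 14.94 to 15.25 with a median of 15.04. The F1 groups did not overlap, while LW HS pigs lay inside the LW TN range. Over breeds the difference was −0.41 ± 0.10 (adjusted p = 0.00289), or 1.33-fold lower, and A_72_P193822 gave −0.43 ± 0.11 (adjusted p = 0.00360). For O10028, 16 of 18 HS pigs were below their breed's TN mean.

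ATG7, the activating enzyme that charges the ubiquitin-like proteins of both conjugation systems, rose by both of its probes. For O12918, the CR TN pigs had log2 values of 7.33, 7.31, 7.23, 6.93 and 7.14, and CR HS pigs ran from 7.14 to 7.80 with a median of 7.54. F1 TN pigs ran from 6.68 to 7.20 with a median of 7.12, and F1 HS pigs from 7.32 to 7.77 with a median of 7.43. LW TN pigs ran from 6.98 to 7.27 with a median of 7.09, and LW HS pigs from 7.03 to 7.66 with a median of 7.59. Only 1 HS pig in CR and 1 in LW kept those breeds' groups from being apart, and the F1 groups were apart. The difference was 0.39 ± 0.07 (adjusted p = 0.00159), or 1.31-fold higher, and 16 of 18 HS pigs lay above every TN pig of their breed. A_72_P046131 rose by 0.30 ± 0.08 (adjusted p = 0.00432), with 15 of 18 HS pigs above the TN mean.

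BECN1, the scaffold of the lipid kinase complex, rose by A_72_P302859 and not by O4451. For A_72_P302859, the CR TN pigs had log2 values of 10.99, 11.05, 11.20, 10.59 and 10.88, and CR HS pigs ran from 10.49 to 11.58 with a median of 11.13. F1 TN pigs ran from 10.21 to 11.17 with a median of 10.89, and F1 HS pigs from 10.84 to 11.76 with a median of 11.23. LW TN pigs ran from 10.38 to 11.21 with a median of 10.92, and LW HS pigs from 10.77 to 11.47 with a median of 11.19. The ranges overlapped in each breed. The difference was 0.30 ± 0.10 (adjusted p = 0.0250), and 15 of 18 HS pigs were above the TN mean of their breed. O4451 gave −0.05 ± 0.11 by limma, with a 95% interval from −0.27 to 0.16 (adjusted p = 0.729). This interval left out a rise of the size seen with the other probe. O4451 was dim, with group means from 5.75 to 6.13, against 10.82 to 11.26 for A_72_P302859. Whether it reads BECN1 RNA was not tested, so its interval does not bound the change of that RNA.

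**Figure D1:**
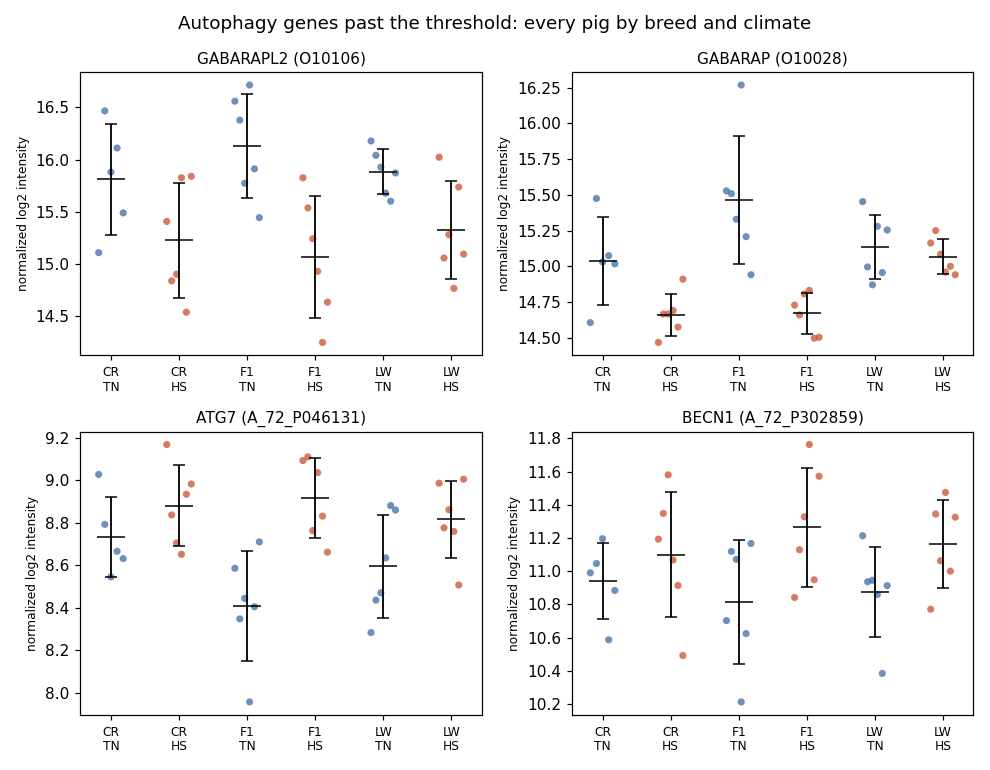
Normalized log2 intensity of every pig (points) for 1 probe each of GABARAPL2, GABARAP, ATG7 and BECN1, by breed (CR, F1, LW) and climate (blue TN, red HS), with the group mean (line) and 1 SD (bars), n = 6 per group and 5 in CR TN. GABARAP was apart between climates in F1 pigs (14.50 to 14.83 against 14.94 to 16.27) and nearly level in LW pigs, and the other 3 panels overlapped in every breed.

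The other probes did not pass, and their intervals hold only for this processing and a model without litter, pen or day. ULK1, the kinase that starts autophagy, gave −0.07 ± 0.06 (A_72_P246097), −0.08 ± 0.07 (A_72_P487880) and −0.14 ± 0.06 (O6385, unadjusted p = 0.0318, adjusted p = 0.0781). All its 3 differences were negative, and no interval went below −0.27 in this model. With scaling on the 75th percentile O6385 was at −0.32, beyond that value. A_72_P487880 and O6385 were dim, so their intervals need not bound the change of ULK1 RNA. O6385 passed when CR HS pig 1 or LW HS pig 1 was left out, with an adjusted p as low as 0.00875. For O6385 the CR TN pigs had log2 values of 6.16, 6.22, 6.18, 6.24 and 6.005, CR HS pigs ran from 5.79 to 6.64 with a median of 5.93, and 15 of 18 HS pigs over breeds were below the TN mean of their breed.

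ATG3, the conjugating enzyme that passes the lipid to the GABARAP family, gave −0.01 ± 0.12 and −0.03 ± 0.11, with intervals between −0.25 and 0.22. Its highest group mean was CR HS and its lowest LW HS for both probes. For O10458 the CR HS pigs ran from 9.08 to 9.68 and the LW HS pigs from 8.78 to 9.35. No neighbours in that order differed by more than the larger SD.

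ATG5, the partner of ATG12 in the other conjugate, gave 0.15 ± 0.08 (A_72_P177691, adjusted p = 0.147), −0.09 ± 0.12 (A_72_P538278) and 0.0050 ± 0.11 (O11953). The last 2 are the identical probes, so the gap between these values shows how far 1 measurement moves from spot to spot. A_72_P177691 was a dim probe, well above background on 31 of 35 arrays. SQSTM1, the cargo receptor, gave 0.10 ± 0.08 (adjusted p = 0.282). Its CR TN pigs had log2 values of 12.19, 11.54, 11.46, 11.57 and 11.57, and CR HS pigs ran from 11.65 to 12.25 with a median of 11.89. The CR TN pig at 12.19 lay within the CR HS range, above the other 4 TN pigs of its breed.

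**Figure D2:**
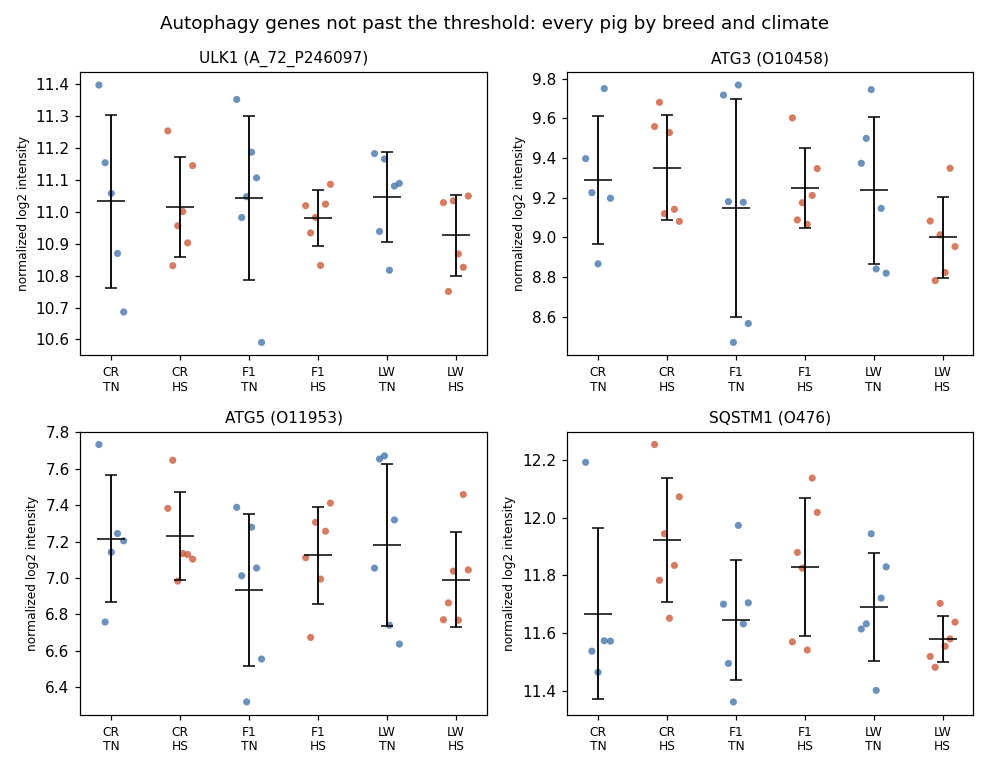
Normalized log2 intensity of every pig (points) for 1 probe each of ULK1, ATG3, ATG5 and SQSTM1, by breed and climate (blue TN, red HS), with the group mean (line) and 1 SD (bars), n = 6 per group and 5 in CR TN. TN and HS ranges overlapped in every breed, and 1 CR TN pig stood at 12.19 for SQSTM1.

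The effect of climate within each breed was read from the means of the 6 groups. In F1 pigs the same 7 of 17 probes passed (38.7% of all probes did), with GABARAPL2 at −1.25 ± 0.27 (A_72_P127556, adjusted p = 0.000806) and −1.06 ± 0.27 (O10106, adjusted p = 0.00324). In the same pigs GABARAP was at −0.82 ± 0.16 and −0.79 ± 0.15, ATG7 at 0.51 ± 0.12 and 0.45 ± 0.12, and BECN1 A_72_P302859 at 0.45 ± 0.18 (adjusted p = 0.0480). The BECN1 call in F1 pigs lay at the threshold: it was lost in 19 of 35 fits that each left out 1 array (adjusted p from 0.0234 to 0.156), and its adjusted p was 0.0954 when the F1 arrays were fitted alone.

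In CR pigs 0 of 17 probes passed by limma, with 4 at an unadjusted p below 0.05 and a smallest adjusted p of 0.557. In LW pigs 0 of 17 passed, with 3 unadjusted and a smallest adjusted p of 0.563. Over all probes 0% passed in each of these breeds, and 8.87% in CR and 8.71% in LW pigs unadjusted. GABARAPL2 O10106 was at −0.59 ± 0.28 in CR and −0.56 ± 0.27 in LW pigs. ATG7 O12918 was at 0.32 ± 0.12 in CR and 0.40 ± 0.12 in LW pigs. GABARAP O10028 was at −0.38 ± 0.16 in CR and −0.07 ± 0.15 in LW pigs. The ranges of HS and TN pigs were apart for 3 of 17 probes in F1 (both GABARAP probes and ATG7 O12918, against 11.7% of all probes), and for 0 in CR (0.461% of all probes) and 0 in LW (0.781%).

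**Figure D3:**
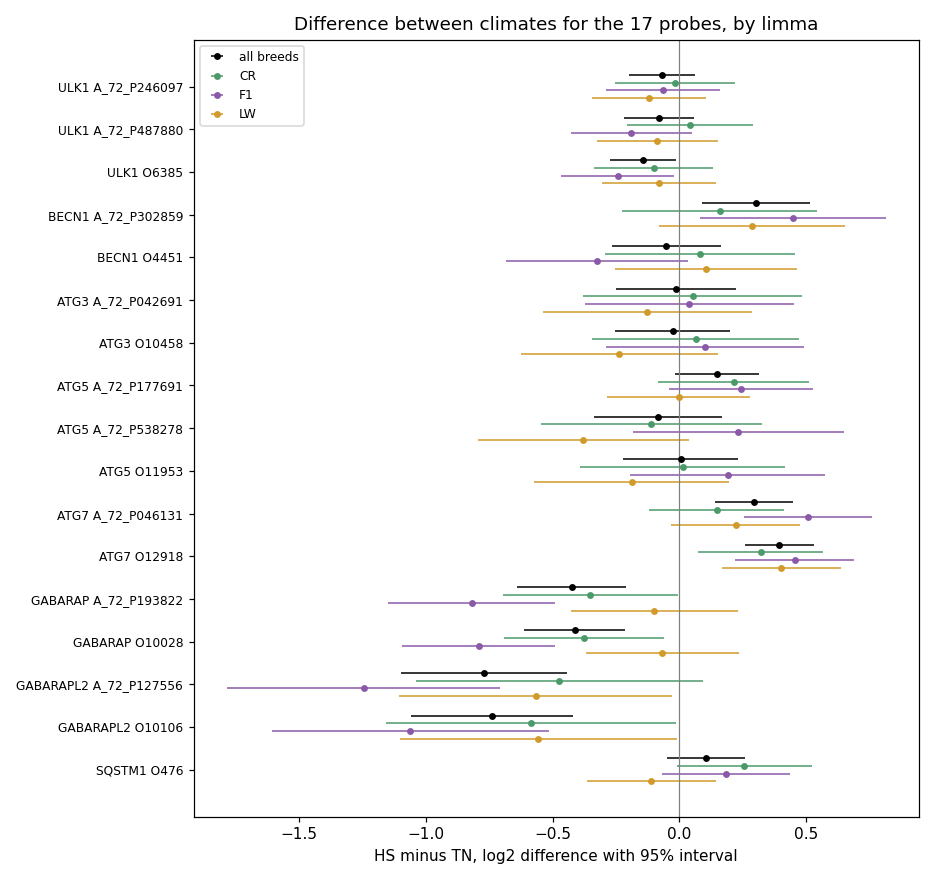
HS minus TN difference on the log2 scale (points) with its 95% interval (lines) for the 17 probes, over all breeds (black) and in CR (green), F1 (purple) and LW (orange) pigs, from limma. Intervals of the F1 pigs lay away from 0 for GABARAPL2, GABARAP, ATG7, BECN1 A_72_P302859 and ULK1 O6385, and GABARAP in LW pigs lay near 0.

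Whether the breeds differed in this effect was tested directly. The interaction of breed and climate passed for 0 of 17 probes by limma, with 2 at an unadjusted p below 0.05 and a smallest adjusted p of 0.278. Of all probes 0% passed, and 14.9% unadjusted. The difference between F1 and LW pigs passed for 0 of 17, with 3 unadjusted, against 0% of all probes and 22.7% unadjusted. It was largest for GABARAP, at −0.72 ± 0.21 for O10028 (95% interval from −1.15 to −0.30, adjusted p = 0.122) and −0.72 ± 0.23 for A_72_P193822. For GABARAPL2 O10106 it was −0.50 ± 0.38 and for ATG7 O12918 0.05 ± 0.16. The differences F1 minus CR and LW minus CR passed for 0 of 17 each, and for 0 without adjustment. Of all probes 0% passed for each, and unadjusted 11.8% for F1 minus CR and 1.79% for LW minus CR. So the larger F1 values were not shown to differ from those of the other breeds.

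The breeds themselves, with climate in the model, gave no call in any member. The contrast CR minus LW passed for 0 of 17 probes by limma (1.08% of all probes), F1 minus CR for 0 (0.184%), F1 minus LW for 0 (0.0256%) and F1 minus the mean of the parental breeds for 0 (0.0717%), with 0 unadjusted in each. Differences between CR and LW pigs ran from −0.25 to 0.20. The 95% interval was narrow for ULK1 A_72_P246097 (−0.12 to 0.20) and ATG7 O12918 (−0.13 to 0.20), and wide for GABARAPL2 A_72_P127556 (−0.56 to 0.25) and ATG3 O10458 (−0.08 to 0.49).

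In the order of the 6 group means, all TN groups lay on 1 side of the HS groups for both probes of GABARAPL2 and ATG7. The same held for GABARAP A_72_P193822 and BECN1 A_72_P302859, and for ULK1 A_72_P246097 and O6385, of which the ULK1 probes did not pass. For both GABARAPL2 probes the order from the highest was F1 TN, LW TN, CR TN, LW HS, CR HS and F1 HS, although no neighbours differed by more than the larger SD of the pair. For ATG7 O12918 the 3 HS groups had means of 7.50 to 7.51 and the TN groups 7.05 to 7.19, and only the step between them (0.31) exceeded the SD. For GABARAP O10028 the step between CR TN (15.04) and F1 HS (14.67) exceeded it, so LW HS pigs ranked with the TN groups. For GABARAP A_72_P193822 it was the step between LW HS (14.59) and CR HS (14.27), with CR TN at 14.62. F1 pigs took both ends of the order for GABARAPL2, and also for GABARAP A_72_P193822, ATG7 A_72_P046131, BECN1 A_72_P302859 and ULK1 A_72_P487880 and O6385.

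The called differences kept their sign on the slides that held a breed in both climates. These are the arrays that gave the calls, so the slides add no separate support. Among 4 slides, HS minus TN was negative on 4 of 4 for both GABARAPL2 probes, from −1.07 to −0.47 for O10106, and for both GABARAP probes, from −0.56 to −0.30 for O10028. It was positive on 4 of 4 for ATG7 O12918 (0.29 to 0.61) and for BECN1 A_72_P302859 (0.01 to 0.80). ATG5 A_72_P177691, which did not pass, was also positive on 4 of 4 (0.02 to 0.33). The fifth slide held no breed in both climates and gave no value.

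GABARAPL2 and GABARAP fell together with most called erythroid markers. With the mean erythroid marker level added to the model, 0 of 17 probes passed by limma, with 6 at an unadjusted p below 0.05 and a smallest adjusted p of 0.120. Over the whole array 1 of 39072 probes passed then (0.00256%), with 18.5% unadjusted, so the loss was not particular to the members. The differences kept their signs, at −0.33 ± 0.12 for GABARAPL2 O10106, −0.20 ± 0.09 for GABARAP O10028, 0.30 ± 0.07 for ATG7 O12918 and 0.24 ± 0.12 for BECN1 A_72_P302859. The covariate itself differed between climates, so the share of the effect that belongs to it was not tested. Without the F1 pigs 0 of 17 passed, with 6 unadjusted and a smallest adjusted p of 0.162, against 0 of all 39072 probes (0%) and 17.5% unadjusted, and 23 arrays remained. The differences were then −0.57 ± 0.17 for GABARAPL2 O10106, −0.22 ± 0.09 for GABARAP O10028 and 0.36 ± 0.08 for ATG7 O12918.

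**Figure D4:**
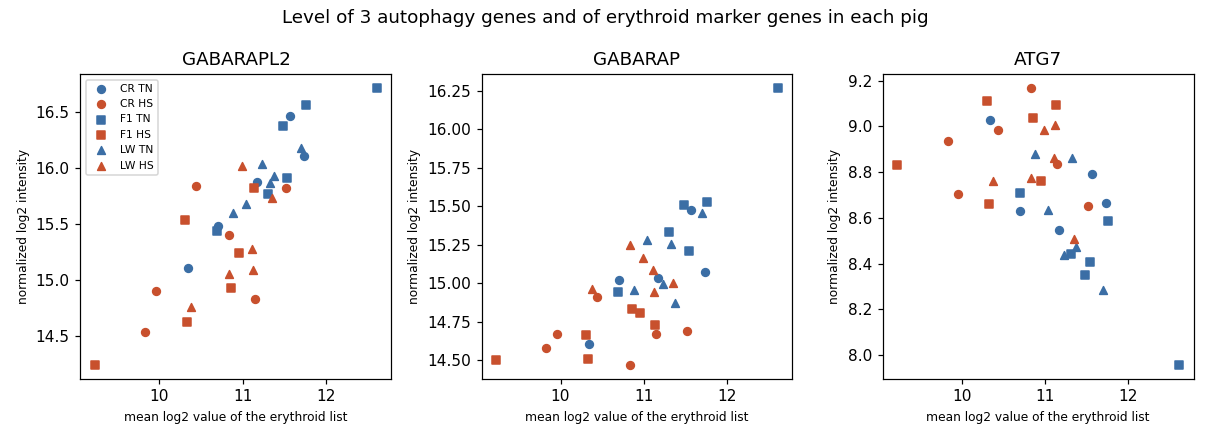
Normalized log2 intensity of GABARAPL2 (O10106), GABARAP (O10028) and ATG7 (A_72_P046131) against the mean log2 value of the erythroid marker list, 1 point per pig (blue TN, red HS; circles CR, squares F1, triangles LW; 35 pigs). GABARAPL2 rises and ATG7 falls along the axis, and 1 F1 TN pig stands apart at an erythroid mean of 12.6.

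With the brightness of the array as a covariate, chosen after seeing the data, 6 of the 7 probes still passed (17.2% of all probes did) and BECN1 A_72_P302859 had an adjusted p of 0.0541 at a difference of 0.31 ± 0.11. With arrays weighted by their quality, 8 of 17 passed over breeds (43.8% of all probes), 7 within F1 pigs (42.7%), 1 within LW pigs (2.84%) and 2, both for GABARAP, for the difference between F1 and LW pigs (9.99%). Within F1 pigs 0 of 17 passed with the erythroid covariate, against 4.43% of all probes, with 6 unadjusted.

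**Figure D5:**
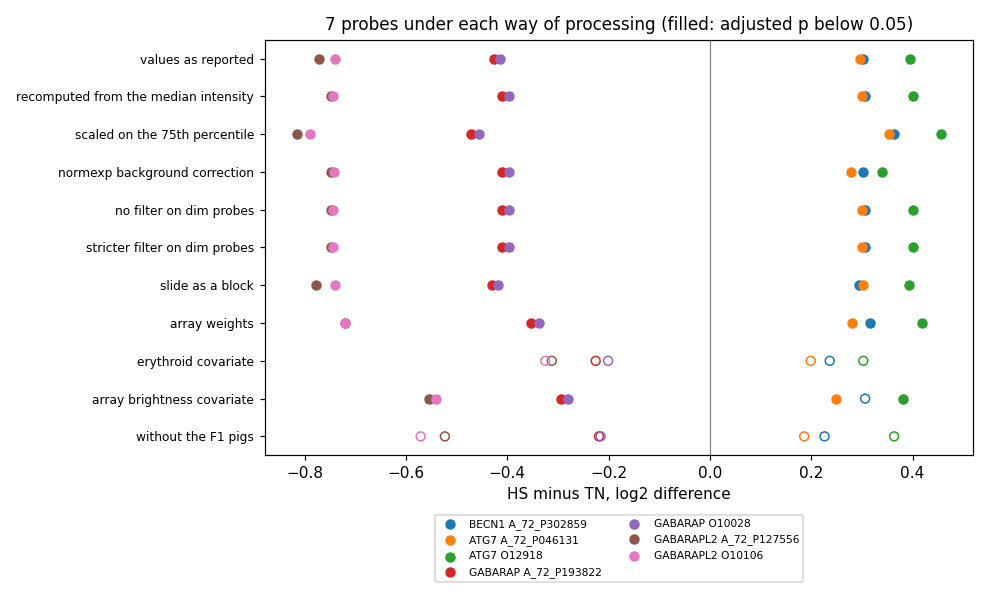
HS minus TN difference on the log2 scale for the 7 probes that passed, under each way of processing (filled where the adjusted p was below 0.05, open otherwise). All differences kept their sign, and the open points are those with the erythroid covariate, without the F1 pigs and, for BECN1, with the brightness covariate.

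Around the members, a list of 71 further autophagy genes was read in the same model. Of these, 49 genes were measured, by 100 probes, and 21 probes rose and 21 fell (42.0%, against 34.8% of all probes). By the brightest probe of each gene, 11 genes rose, 10 fell and 28 did not pass, with a median of 0.04. Of 9 cargo receptor genes 4 fell and 1 rose, and of 20 regulator genes 6 rose and 2 fell, each by its brightest probe. Over all probes, dim ones included, 14.7% fell and 20.1% rose, which is a different unit from these counts of genes. By probe, 13 of 25 for receptors fell, of which 6 were for BNIP3L and 4 for NCOA4, and 14 of 43 for regulators rose, of which 6 were for MITF.

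Among the receptors, NCOA4, which takes ferritin to the lysosome, fell by 1.11 ± 0.28 on the log2 scale (adjusted p = 0.00417) and all its 4 probes fell. From TN to HS its median log2 value went from 13.25 to 11.92 in CR, from 13.51 to 12.04 in F1 and from 12.92 to 12.52 in LW pigs. TAX1BP1, a receptor for ubiquitinated cargo, fell by 0.94 ± 0.25 (adjusted p = 0.00597, 2 of 2 probes). The 6 probes of BNIP3L, the mitochondrial receptor of maturing red cells, all fell, from −1.07 to −0.59. NBR1, which resembles SQSTM1, rose by 0.23 ± 0.06. ATG4A, a protease that trims GABARAP proteins, fell by 0.87 ± 0.23 (adjusted p = 0.00530).

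Among the regulators, MITF, a transcription factor related to TFEB, rose by 0.54 ± 0.11 (adjusted p = 0.00159) and all its 6 probes rose. Its LW TN pigs ran from 6.83 to 7.16 and LW HS pigs from 7.14 to 8.17. The overlap was wider in CR pigs, with TN from 7.09 to 7.87 and HS from 7.46 to 8.97, and in F1 pigs, with TN from 6.69 to 7.67 and HS from 7.48 to 8.04. MLST8, a subunit of the mTOR complexes, rose by 0.33 ± 0.07 (adjusted p = 0.00226). PRKAG1, a subunit of the energy sensor AMPK, rose by 0.34 ± 0.09 for its brightest probe (adjusted p = 0.00637), but O5825, another of its 3 probes, fell by 0.38 ± 0.11. With the erythroid covariate 0 of the 100 probes passed by limma (28 unadjusted), and without the F1 pigs 0 (32 unadjusted), where 1 and 0 of all 39072 probes passed.

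The genes whose values were most like those of the called members over the 35 arrays were sought among 7702 named genes. For GABARAPL2 O10106 they were RIOK3 (Pearson's r = 0.91), TFDP2 (0.90) and OSBPL5 (0.90). For GABARAP O10028 they were PSMD4 (0.88), UBE2H (0.85) and NUDT9 (0.84). For ATG7 A_72_P046131 they were SDF4 (0.82), SLC43A2 (0.81) and MIF4GD (0.79), and for BECN1 A_72_P302859 TNPO3 (0.82), MDFIC (0.80) and PTPN11 (0.80). The arrays share climate, brightness and cell makeup, so these values describe likeness over these pigs and no more. RIOK3 fell by 1.27 ± 0.23 and PSMD4 by 0.30 ± 0.12, while TNPO3 rose by 0.33 ± 0.07.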

How the data were processed

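Whole blood RNA was labelled with Cy3 and hybridised to a custom Agilent porcine array with 60-base probes. Per the file headers, Feature Extraction 10.10.1.1 gave each spot's intensity. From the median intensity, the authors deposited log2 values, quantile normalized, of 39072 expressed probes, and these were used as given. The study updated the annotation of its probes against a Sscrofa assembly, and no coordinates are printed because the files used here hold no mapped position for these probes. The 35 columns all carried a sample, and 0 had none. Breed and climate were fitted with limma 3.58.1 in R 4.3.3 on all 35 arrays, with a Benjamini-Hochberg adjusted p below 0.05 as the call. A model of 6 group means gave effects within breeds and their differences. Pen, day of slaughter, father and mother, which the study's model held, were not in the labels. The p-values measure the spread between pigs, some of which were littermates or shared a pen. Every member probe was named or counted. Of the further genes, 3 called ones were named for the size of their rise and 3 for that of their fall, and BNIP3L and NBR1 were named after their values were seen. The 3 most alike genes were sought for the brightest probe of each called member. The members and lists were chosen with earlier results of these data known. Alternatives were recomputed intensity, scaling on the 75th percentile, normexp background correction, 2 filters on dim probes, slide as a block, array weights, marker and brightness covariates, leaving out the F1 pigs or each array, and fits within 1 breed. The fitting steps were tested on simulated data.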

Additional observations from a re-analysis of the deposited data

Results flagged for a closer look

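Over 17 probes in 6 groups, 102 sets of values were read, from the same pigs for each probe. In 6 of them 1 pig stood apart from the rest of its group, where chance gives about 1 in 20. For BECN1 O4451, 1 CR HS pig had the highest value at 6.62, with the others between 5.40 and 5.85, and 1 LW TN pig had 6.26, with the others between 5.72 and 5.78. For ATG7 O12918, 1 LW HS pig had the lowest value at 7.03, with the others between 7.55 and 7.66. For GABARAP A_72_P193822, 1 CR HS pig had the highest value at 14.64, with the others between 14.12 and 14.26. For ATG3 A_72_P042691, 1 F1 HS pig was lowest at 8.17, with the others between 8.69 and 8.92. For SQSTM1 O476, 1 CR TN pig was highest at 12.19, with the others between 11.46 and 11.57.

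A further ATG5 probe, A_72_P444461, was left out of the deposited log2 table. It was well above background on all 35 arrays. From the recomputed intensity its HS minus TN difference was 0.07 ± 0.05 (SE) on the log2 scale, with an adjusted p of 0.363 by limma.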

How the results depend on the processing

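Of the member probes, 7 passed in HS minus TN over breeds. With the erythroid covariate 0 passed (1 of all 39072 probes), without the F1 pigs 0 (0 of all), and within F1 pigs 0 with the erythroid covariate (4.43% of all). The cause was not tested. With array weights 1 passed within LW pigs (ATG7 O12918, against 2.84% of all probes) and 2 for the difference between F1 and LW pigs (both GABARAP probes, against 9.99% of all). Of the further autophagy genes 42 probes passed, and 0 with the erythroid covariate or without F1 pigs. Leaving out 1 array at a time gave 7 to 8 over breeds, 6 to 8 within F1 pigs, 39 to 49 of the further genes, and 0 to 0 for every other count. ULK1 O6385 passed without CR HS pig 1 or without LW HS pig 1 and also in F1 pigs without the former. It passed with scaling on the 75th percentile (−0.32, adjusted p = 0.0426) and with array weights (−0.20, adjusted p = 0.00337).

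Signs turned for 4 probes that did not pass. BECN1 O4451 was at 0.011 with the erythroid covariate, 0.044 with the brightness covariate and 0.093 without F1 pigs. ATG3 A_72_P042691 was at 0.033 under scaling on the 75th percentile, 0.025 with array weights and 0.16 with the erythroid covariate, and from −0.055 to 0.039 over single arrays left out. ATG3 O10458 was at 0.00048 under that scaling, 0.14 with the erythroid covariate and −0.074 to 0.013 over single arrays left out. ATG5 O11953 was at −0.030 under that scaling, −0.0029 with slide as a block, −0.095 with the brightness covariate, −0.092 without F1 pigs and −0.041 to 0.043 over single arrays left out. No paired analysis was possible because each pig was bled in a single climate and the labels give no litter or pen. Dimness limited ATG5 A_72_P177691 and the unlisted ULK1 probe, which was well above background on 0 arrays. BECN1 O4451 and ULK1 A_72_P487880 and O6385 were dim too, with group means of 5.75 to 6.23.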

Other observations

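Probes described in the files as like a member, but under another name, fell outside the rule. A probe described as Beclin 1-like, A_72_P101496, had an HS minus TN difference of 0.25 ± 0.10 (SE) on the log2 scale, with an adjusted p of 0.0424 by limma. Of the probes described as like ATG7, A_72_P078276 was at 0.20 ± 0.06 (adjusted p = 0.0179) and A_72_P209342 at 0.09 ± 0.06 (adjusted p = 0.187). A probe named MAP1LC3B2, O8854, was at −0.15 ± 0.08 (adjusted p = 0.128). O8853, described as similar to a light chain of microtubule-associated proteins, was at −0.03 ± 0.07 (adjusted p = 0.750).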
